A study of Homo sapiens with 6 samples.

Results

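The 10 genes described here encode enzymes that cut RNA bound to an antisense strand or degrade the pieces: RNASEH1, RNASEH2A, RNASEH2B, RNASEH2C, XRN1, XRN2, EXOSC3, EXOSC10, DIS3 and AGO2. They were chosen by symbol for this function and hold 22 of the 63714 transcript rows and 10 of the 27689 gene symbols in the table. Polyadenylated RNA was sequenced from Huh7, an established human liver cancer line. There were 3 NC and 3 NACER_ASO libraries, and sets 2, 5 and 6 each held 1 of either kind. The series names the second group a knockdown of NACER, a long non-coding RNA. ASO is the usual abbreviation of antisense oligonucleotide, but the labels do not spell out ASO or NC, and give no dose, time, oligonucleotide design or meaning of a set. Whether a set was its own culture is not stated, and the p-values below reflect library-to-library spread that may be partly technical.

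RNase H enzymes cleave the RNA strand of an RNA-DNA hybrid. RNASEH1 encodes the single-chain enzyme, which acts in the nucleus and in mitochondria and is the one that DNA-containing antisense oligonucleotides use to cut their target. RNASEH2A, RNASEH2B and RNASEH2C encode the 3 subunits of RNase H2, which also removes single ribonucleotides from genomic DNA. After a cut, the fragment with a new 5′ end is open to the 5′ to 3′ exonucleases XRN2 in the nucleus and XRN1 in the cytoplasm. The fragment with a new 3′ end is open to the RNA exosome, whose members here are the cap subunit EXOSC3 and the nucleases DIS3 and EXOSC10. AGO2 is the Argonaute protein that cuts RNA paired to a small guide RNA, as in RNA interference.

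In the library set as a whole, 12738 to 14635 genes reached 1 FPKM (fragments per kilobase of transcript length, scaled to library size). All 9 hepatocyte markers examined had at least 1 FPKM in every library, with ALB between 576 and 1242 FPKM. Of 8 markers of other cell types, PTPRC, CD3E, PECAM1 and VWF stayed below 1 FPKM throughout, whereas LYZ (27.7 to 479 FPKM), KRT19 (1.1 to 103 FPKM) and COL1A1 (1.44 to 11.1 FPKM) were above it in every library and COL1A2 ran from 0 to 36.1 FPKM. The values are FPKM and no counts were used, so depth is known only roughly. By the step between the lowest values, each of the 10 genes rested on about 379 fragments or more in its shallowest library. All 10 genes passed the filter of 1 FPKM in 3 libraries, and each was above 1 FPKM in all 6.

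None of the 10 genes differed between NACER_ASO and NC beyond the spread of the libraries. The limma fit called 0 of the 10, and 0% of all 13576 genes tested, at an adjusted p of 0.05. At an unadjusted p under 0.05 it held 0 of the 10 and 20 of all genes (0.147%). A limma fit blocked on set likewise called 0 of the 10 and 0% of all genes. In that blocked fit 0 of the 10 had an unadjusted p under 0.05, against 1685 of all genes (12.4%). RNASEH2B was the only one of the 10 that was higher in NACER_ASO in all 3 sets, a pattern shown by 27.2% of all genes. EXOSC3 was the only one lower in all 3 sets, a pattern shown by 11% of all genes. No member had groups that did not overlap, against 1.2% of all genes with NACER_ASO above NC and 0.368% with NACER_ASO below. The median log2 difference of the 10 genes was -0.030, beside 0.041 for all genes.

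**Figure D1:**
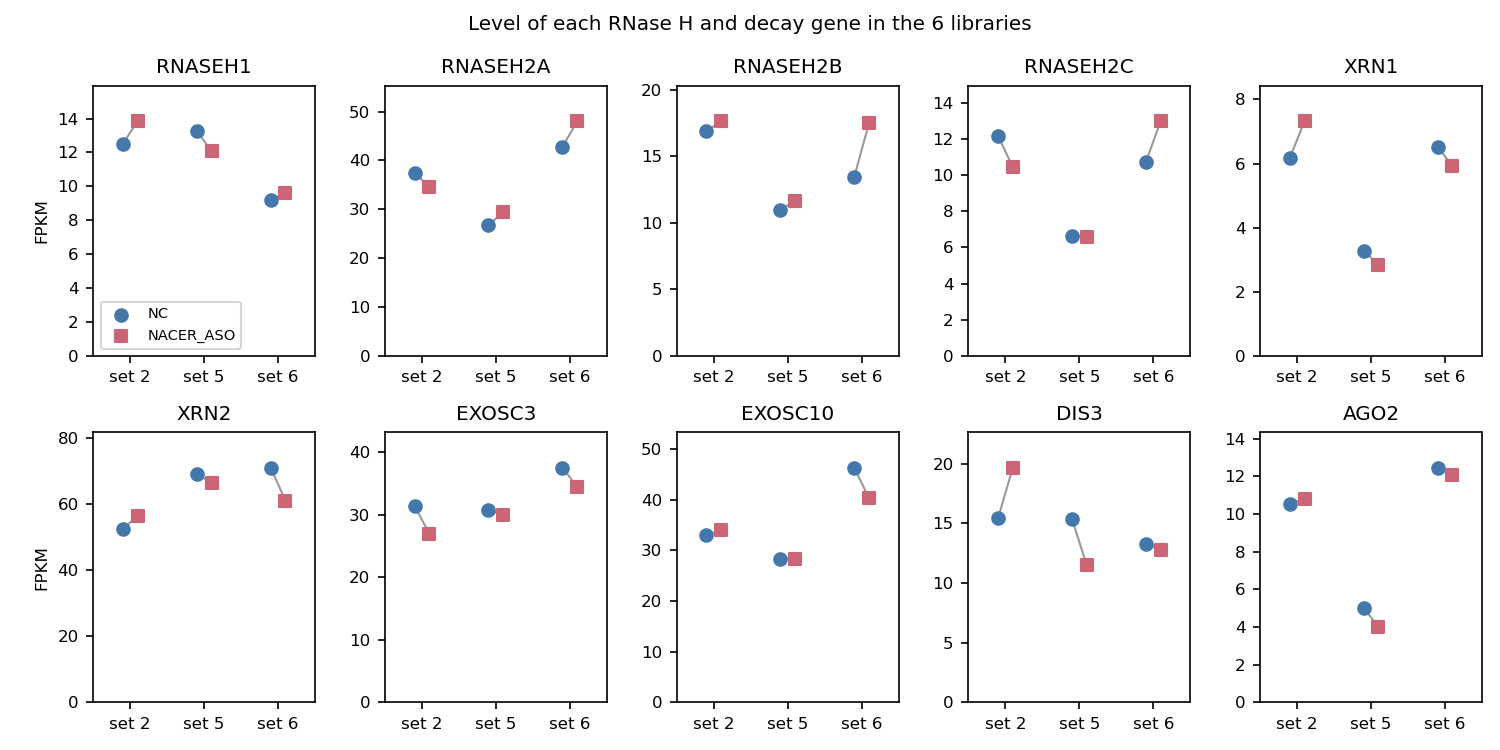
FPKM of each of the 10 genes on the vertical axis, starting at 0, for sets 2, 5 and 6. Circles are NC, squares are NACER_ASO, and a grey line joins the 2 libraries of a set. The groups overlap in every panel, and the RNASEH2 subunits, XRN1, EXOSC10 and AGO2 have their lowest values in set 5.

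RNASEH1 had 12.5, 13.3 and 9.19 FPKM in NC sets 2, 5 and 6, and 13.8, 12.1 and 9.64 FPKM in NACER_ASO in the same order. The values of the groups interleaved, and both libraries of set 6 were the lowest. The means were 11.7 ± 2.17 FPKM (SD, n = 3) in NC and 11.9 ± 2.11 FPKM in NACER_ASO. On the log2(FPKM + 1) scale used throughout, NACER_ASO minus NC was 0.024 (SE 0.24, 95% confidence interval -0.54 to 0.59, adjusted p = 0.999994 in limma, exact permutation p = 0.8). With the set block the interval was -0.18 to 0.23 (SE 0.082, adjusted p = 0.914). Within sets 2, 5 and 6 the difference was 0.14, -0.12 and 0.062, so its sign was not shared. In hg19 RNASEH1 spans chromosome 2 from 3592482 to 3605961, and the antisense gene RNASEH1-AS1 begins at 3605976, past a gap of 14 bases.

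The RNase H2 subunits also had overlapping groups. RNASEH2A, the catalytic subunit, had 37.5, 26.7 and 42.8 FPKM in NC sets 2, 5 and 6 and 34.5, 29.4 and 48.0 FPKM in NACER_ASO. RNASEH2B, an accessory subunit that ties the enzyme to the replication clamp PCNA, had 16.9, 11.0 and 13.4 FPKM in NC and 17.6, 11.6 and 17.5 FPKM in NACER_ASO. RNASEH2C, the other accessory subunit, had 12.2, 6.62 and 10.7 FPKM in NC and 10.4, 6.58 and 13.0 FPKM in NACER_ASO. In all 3 genes both libraries of set 5 were the lowest, and in RNASEH2A those of set 6 were the highest.

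The log2 difference was 0.061 for RNASEH2A (SE 0.27, 95% interval -0.58 to 0.70), 0.16 for RNASEH2B (SE 0.26, interval -0.45 to 0.78) and 0.014 for RNASEH2C (SE 0.33, interval -0.79 to 0.81). All 3 had an adjusted p of 0.999994 in limma and exact permutation p-values of 0.8, 0.5 and 1 in that order. With the set block, the intervals narrowed to -0.12 to 0.25, -0.046 to 0.37 and -0.24 to 0.27, with adjusted p of 0.762, 0.482 and 0.965. The difference of RNASEH2B came mostly from set 6, at 0.36 against 0.060 and 0.077 in sets 2 and 5. RNASEH2A was at least 1.96 times RNASEH2B and 3.08 times RNASEH2C in FPKM in every library. The locus of RNASEH2C overlaps that of KAT5 by 1934 bases, and reads there cannot be divided with certainty where use of strand is not stated. The ratio of RNASEH2A to RNASEH2C was 3.70 ± 0.538 in NC and 3.82 ± 0.591 in NACER_ASO (SD, n = 3, exact permutation p = 0.9). FPKM is per length, so these are ratios of messenger RNA estimates and say nothing of the protein subunits.

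RNASEH1 is shown with its upstream sequence because its antisense neighbour starts next to it. The RNase H2 genes are shown because all 3 subunits had their lowest levels in set 5, though they differed in direction between sets 2 and 6. XRN1, EXOSC10 and AGO2, not shown, also had their lowest levels in set 5. Each line gives the 250 bases before a RefSeq start in GRCh38.p14, 5′ to 3′ along the gene. Capitals mark GGGCGG (GC box), CCAAT and CCGGAAG (ETS) on either strand.
RNASEH1, chr2:3558334-3558583, minus strand: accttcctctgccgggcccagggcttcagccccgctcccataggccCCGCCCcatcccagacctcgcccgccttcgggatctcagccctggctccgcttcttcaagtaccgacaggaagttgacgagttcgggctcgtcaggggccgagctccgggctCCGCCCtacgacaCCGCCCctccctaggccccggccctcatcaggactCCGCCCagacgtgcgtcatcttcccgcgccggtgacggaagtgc
RNASEH2A, chr19:12806334-12806583, plus strand: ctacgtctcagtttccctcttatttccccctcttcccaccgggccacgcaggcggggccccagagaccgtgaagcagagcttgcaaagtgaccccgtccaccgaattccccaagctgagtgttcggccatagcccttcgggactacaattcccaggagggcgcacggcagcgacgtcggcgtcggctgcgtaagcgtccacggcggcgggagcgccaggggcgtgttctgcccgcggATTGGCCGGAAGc
RNASEH2B, chr13:50909428-50909677, plus strand, the first of 2 starts: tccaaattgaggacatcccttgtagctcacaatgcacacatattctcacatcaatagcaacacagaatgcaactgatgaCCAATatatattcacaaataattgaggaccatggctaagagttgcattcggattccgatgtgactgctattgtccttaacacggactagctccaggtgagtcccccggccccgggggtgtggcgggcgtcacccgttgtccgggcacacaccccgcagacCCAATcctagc
RNASEH2C, chr11:65720799-65721048, minus strand: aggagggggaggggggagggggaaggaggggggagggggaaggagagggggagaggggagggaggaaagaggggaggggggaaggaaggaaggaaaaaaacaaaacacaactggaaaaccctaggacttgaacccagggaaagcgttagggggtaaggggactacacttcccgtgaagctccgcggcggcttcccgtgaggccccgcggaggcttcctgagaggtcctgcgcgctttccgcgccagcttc
The RNASEH1 window held 4 GC boxes on the opposite strand, RNASEH2A a reversed CCAAT 13 bases before the start with CCGGAAG directly after it, RNASEH2B 2 CCAAT, and RNASEH2C none of the marked motifs. No motifs overlapped in these windows. Windows with GGGCGG made up 42.6% of the 35116 windows in the RefSeq table, those with CCAAT 32% and those with CCGGAAG 8.52%. The core of the antioxidant response element that NRF2 binds, TGACNNNGC, was in 0 of 12 windows of 9 members, against 10.9% of all windows. The string TTTNGCGC, searched as an E2F motif, was in 0 of 12, against 1.51%. Other forms of the E2F site were not searched, so their absence is not shown. Both strands were searched, and the window of AGO2 was not used.

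XRN2 was the most abundant of the 10 genes and XRN1 the least. XRN2, which also releases RNA polymerase II after the polyadenylation site, had 52.4, 69.1 and 71.0 FPKM in NC sets 2, 5 and 6 and 56.4, 66.4 and 61.0 FPKM in NACER_ASO. Both set 2 libraries were its lowest. XRN1, which degrades decapped messenger RNA, had 6.17, 3.29 and 6.53 FPKM in NC and 7.32, 2.83 and 5.92 FPKM in NACER_ASO, with both set 5 libraries lowest. The log2 difference between the groups was -0.056 for XRN2 (SE 0.18, 95% interval -0.50 to 0.39) and -0.023 for XRN1 (SE 0.39, interval -0.97 to 0.92). Each had an adjusted p of 0.999994 in limma. With the set block the intervals were -0.24 to 0.13 for XRN2 (adjusted p = 0.781) and -0.29 to 0.24 for XRN1 (adjusted p = 0.942). Both were higher in NACER_ASO in set 2 and lower in sets 5 and 6. The ratio of XRN2 to XRN1 in FPKM lay between 7.71 and 10.9 in sets 2 and 6 and was 21.0 and 23.4 in the set 5 libraries.

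Of the exosome genes, EXOSC3, which helps thread RNA into the complex, had 31.4, 30.8 and 37.5 FPKM in NC sets 2, 5 and 6 and 27.0, 29.9 and 34.5 FPKM in NACER_ASO. It was lower in NACER_ASO in each set, by differences of -0.21, -0.041 and -0.12, but the groups overlapped. EXOSC10, a 3′ to 5′ exonuclease found mainly in the nucleus, had 33.0, 28.3 and 46.3 FPKM in NC and 34.1, 28.4 and 40.4 FPKM in NACER_ASO. DIS3, which carries exonuclease and endonuclease activity, had 15.4, 15.4 and 13.3 FPKM in NC and 19.7, 11.5 and 12.8 FPKM in NACER_ASO. The 2 extremes of DIS3 were both NACER_ASO libraries, of sets 2 and 5. The log2 difference was -0.12 for EXOSC3 (SE 0.18, 95% interval -0.56 to 0.31), -0.050 for EXOSC10 (SE 0.24, interval -0.64 to 0.54) and -0.037 for DIS3 (SE 0.25, interval -0.63 to 0.56). Each had an adjusted p of 0.999994 in limma. With the set block the intervals were -0.28 to 0.031, -0.22 to 0.12 and -0.37 to 0.30, with adjusted p of 0.476, 0.794 and 0.922.

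AGO2 had 10.5, 5.02 and 12.5 FPKM in NC sets 2, 5 and 6 and 10.8, 4.01 and 12.1 FPKM in NACER_ASO. The values fell into the set 5 pair and the other 4 libraries, and NC and NACER_ASO overlapped. The log2 difference was -0.091 (SE 0.48, 95% interval -1.26 to 1.07, adjusted p = 0.999994 in limma), and with the set block the interval was -0.31 to 0.13 (adjusted p = 0.692). Over the 10 genes, exact permutation p-values for the group difference lay between 0.4 and 1, where 3 against 3 libraries cannot go below 0.1. The blocked intervals reached at most 0.37 above 0, for RNASEH2B, and 0.37 below 0, for DIS3. On the log2(FPKM + 1) scale the upper bound for RNASEH1 corresponded to 1.17-fold and that for RNASEH2B to 1.3-fold.

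**Figure D2:**
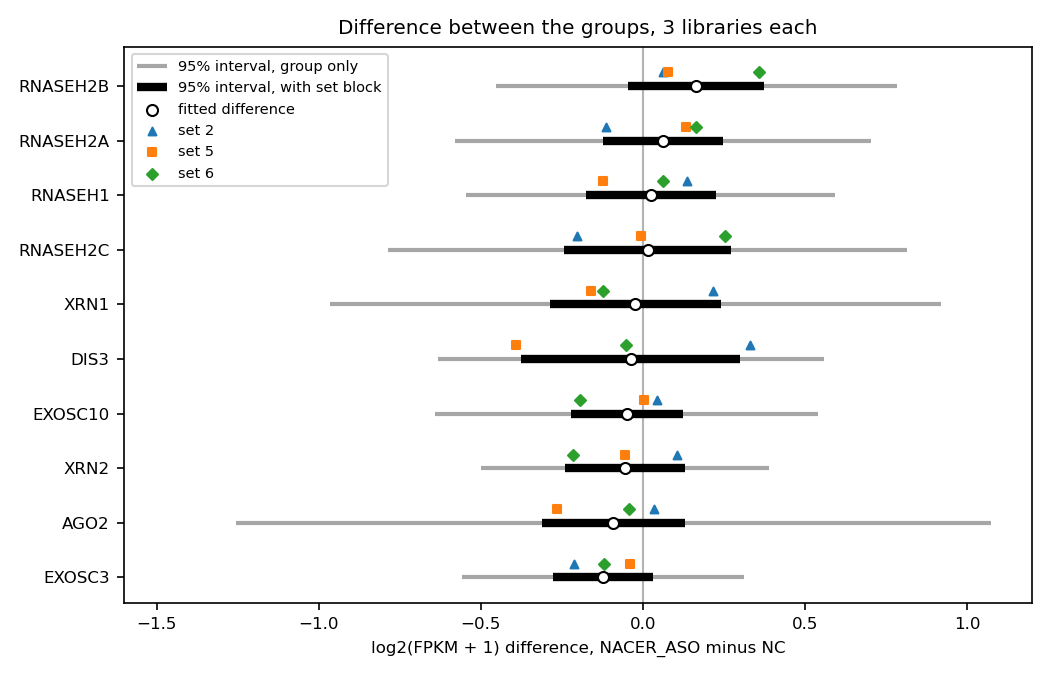
Log2(FPKM + 1) difference, NACER_ASO minus NC, for each of the 10 genes. White circles are the fitted difference, grey lines its 95% interval from the fit with group only, black bars that from the fit with the set block, and small marks the difference within each set. Every interval includes 0, and RNASEH2B and EXOSC3 alone have all 3 set marks on one side of 0.

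The order of levels was XRN2 (mean 62.7 FPKM over 6 libraries), RNASEH2A (36.5), EXOSC10 (35.1), EXOSC3 (31.8), RNASEH2B (14.7), DIS3 (14.7), RNASEH1 (11.8), RNASEH2C (9.93), AGO2 (9.16) and XRN1 (5.34). XRN2 was above RNASEH2A, EXOSC3 above RNASEH2B, and AGO2 above XRN1 in 6 of 6 libraries. RNASEH2A and EXOSC10, EXOSC10 and EXOSC3, RNASEH2B and DIS3, RNASEH1 and RNASEH2C, and RNASEH2C and AGO2 were in that order in only 4 of 6 libraries, and DIS3 was above RNASEH1 in 5. RNASEH1 stood at the 54.7th percentile of mean level among genes tested, RNASEH2A at the 83.9th, XRN2 at the 91.5th and XRN1 at the 31.5th. RNASEH2A was 2.02 to 4.98 times RNASEH1 in FPKM, with the 2 highest ratios in set 6.

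More genes were called between sets than between groups. A contrast of set 5 with the mean of sets 2 and 6, with group as a term, called 9597 of 13576 genes in limma (70.7%), of which 24.1% of the genes tested were higher and 46.6% lower in set 5. Of the 10 genes, 0 were called higher and 6 lower, a share not tested against that background. The SEs and p-values of this contrast rest on spread within sets, with 2 libraries a set taken as replicates after the group term. They do not measure spread between sets, and sets 2 and 6 also differed from each other, as given below. AGO2 fell to 0.393 of its mean FPKM in the other sets (log2 difference -1.18, SE 0.096, adjusted p = 0.000129) and XRN1 to 0.472 (-0.88, SE 0.11, adjusted p = 0.000847). RNASEH2C fell to 0.570 (-0.72, SE 0.11, adjusted p = 0.00171), RNASEH2A to 0.690 (-0.51, SE 0.080, adjusted p = 0.00186) and RNASEH2B to 0.692 (-0.49, SE 0.091, adjusted p = 0.00378). EXOSC10 fell to 0.738 (-0.41, SE 0.074, adjusted p = 0.00332). RNASEH1 (0.17, SE 0.087, adjusted p = 0.124), XRN2 (0.18, SE 0.080, adjusted p = 0.0930), EXOSC3 (-0.089, SE 0.067, adjusted p = 0.271) and DIS3 (-0.17, SE 0.15, adjusted p = 0.337) were not called.

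The 6 genes called were lower in set 5 within NC and within NACER_ASO alike: AGO2 by -1.05 and -1.31, XRN1 by -0.78 and -0.98, and RNASEH2C by -0.71 and -0.74. The median of all genes in this contrast was -0.22, and -0.0077 with median-of-ratios scaling, which moved the share of calls that were higher from 34.1% to 49.7%. Under that scaling AGO2, XRN1, RNASEH2A, RNASEH2B and RNASEH2C were still called lower, RNASEH1 and XRN2 were called higher (0.40, adjusted p = 0.00412, and 0.42, adjusted p = 0.00471), and EXOSC10 was not called (-0.17, adjusted p = 0.119). EXOSC10 was also not called without NC set 5 (adjusted p = 0.0544), nor RNASEH2B without NACER_ASO set 5 (adjusted p = 0.0571). DIS3 turned from -0.17 to 0.097 without NACER_ASO set 5, and was called lower without NC set 2 (-0.31, adjusted p = 0.0470). Without NC set 6, XRN2 was called higher (adjusted p = 0.0459), and it was also called without NACER_ASO set 2 (adjusted p = 0.0198). The summed hepatocyte markers moved with this contrast, at 6085 and 6235 FPKM in the set 5 libraries against 1345 to 3344 FPKM in the others, with all 9 markers above 1 FPKM in every library. The 8 markers of other cells summed to 460 and 484 FPKM in set 5 and to 130 to 212 FPKM elsewhere, with PTPRC, CD3E and COL1A2 at 0 in at least 1 library. Of the 484 FPKM, in NACER_ASO set 5, LYZ alone held 479 FPKM. The higher sum in set 5 therefore does not show that these markers rose as a class. The part of these markers in the set differences was not tested. A different mix of cells and a different share of these marker RNAs per cell cannot be told apart, and other differences between sets were not tested.

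**Figure D3:**
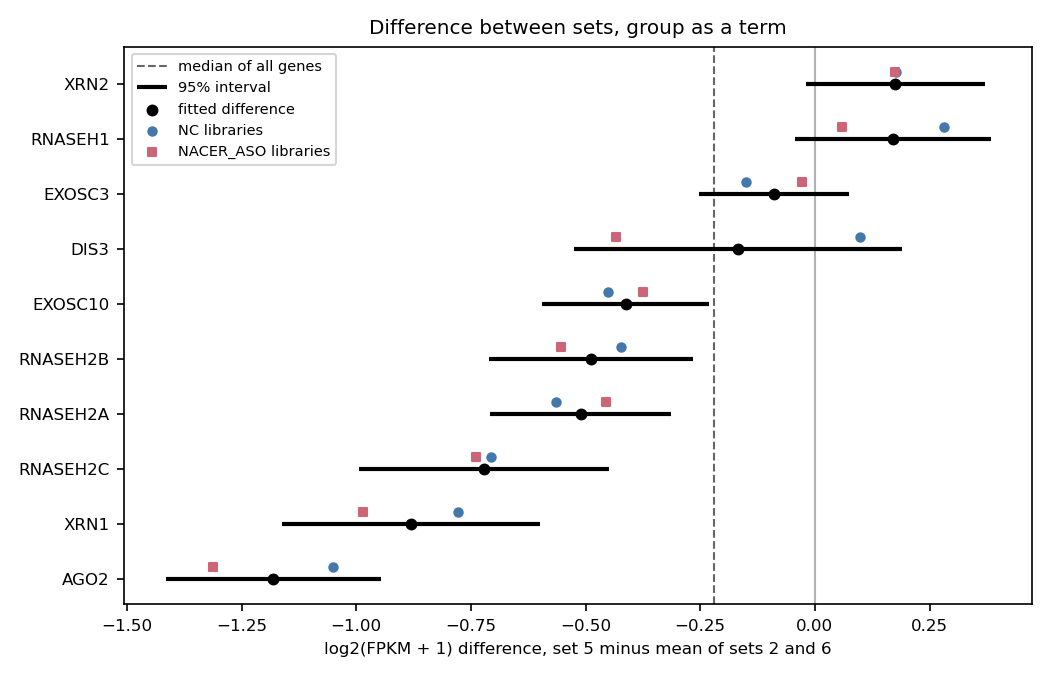
Log2(FPKM + 1) difference between set 5 and the mean of sets 2 and 6 for each of the 10 genes. Black points and lines are the fitted difference and its 95% interval, which rests on spread within sets. Small circles and squares are the difference within NC and within NACER_ASO, and the dashed line is the median of all genes at -0.22. AGO2 at -1.18 and XRN1 at -0.88 lie farthest to the left.

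Between sets 6 and 2, which were compared by values only, RNASEH1 was lower in set 6 by -0.41 in NC and -0.48 in NACER_ASO. RNASEH2A (0.19 and 0.46), EXOSC10 (0.48 and 0.24), EXOSC3 (0.25 and 0.34) and XRN2 (0.43 and 0.11) were higher in set 6 in both groups. So was AGO2 (0.22 and 0.15), while DIS3 (-0.20 and -0.59) and RNASEH2B (-0.31 and -0.013) were lower in both. RNASEH2C (-0.17 and 0.29) and XRN1 (0.071 and -0.27) differed in sign between the groups.

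The 22 transcripts were examined because a gene sum can hide isoforms that move against each other. Of these, 17 passed the filter, and limma called 0 of them and 0% of 23390 transcripts, with and without the set block. At an unadjusted p under 0.05 none of the 17 passed, against 0.941% of all transcripts, or 6.05% with the block. RNASEH2A and RNASEH2C had 1 transcript each. In RNASEH1 the transcript NM_002936 held 56.3%, 81.1% and 82.5% of the gene in NC sets 2, 5 and 6 and 45.8%, 76.7% and 79.8% in NACER_ASO. NM_001286837 held 29.1%, 15.5% and 14.6% in NC and 46.0%, 18.9% and 15.6% in NACER_ASO. NM_002936 was thus lower in share in NACER_ASO in 3 of 3 sets, but its level was not called (log2 difference -0.10, SE 0.28, adjusted p = 0.999942 in limma, and 0.816 with the block). How many of all transcripts had a share that moved one way in all sets was not counted.

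DIS3 showed the widest shifts between its transcripts, which are 7408 to 7634 bases long and share a locus. NM_014953 held 40.1%, 72.1% and 35.6% of the gene in NC sets 2, 5 and 6 and 72.2%, 30.7% and 37.7% in NACER_ASO. The difference within sets was 1.08, -1.42 and 0.024, so sets 2 and 5 went in opposite directions (log2 difference -0.10, SE 0.51 and adjusted p = 0.964 in limma with the block). Such estimates divide reads among isoforms that overlap over most of their length, which makes them less certain than the gene sum. In AGO2 the transcript NM_012154 held between 74.8% and 97.0%, in XRN2 NM_012255 held between 93.4% and 99.0%, and in RNASEH2B NM_024570 held between 73.9% and 91.2%. The lowest share of NM_024570 was in NACER_ASO set 2, where NM_001142279 held 26.1% of RNASEH2B. NM_001164623 of AGO2 held 25.2% in NC set 2 and 2.97% to 14.2% elsewhere. In the set contrast limma called 6 of the 17 transcripts, against 35.3% of all transcripts. The 5 called lower in set 5, against 23.5% of all, were those of RNASEH2A and RNASEH2C, XRN1 NM_001282857, EXOSC10 NM_001001998 and AGO2 NM_012154. The 1 called higher, against 11.8% of all, was RNASEH1 NM_002936 (0.43, adjusted p = 0.0476).

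**Figure D4:**
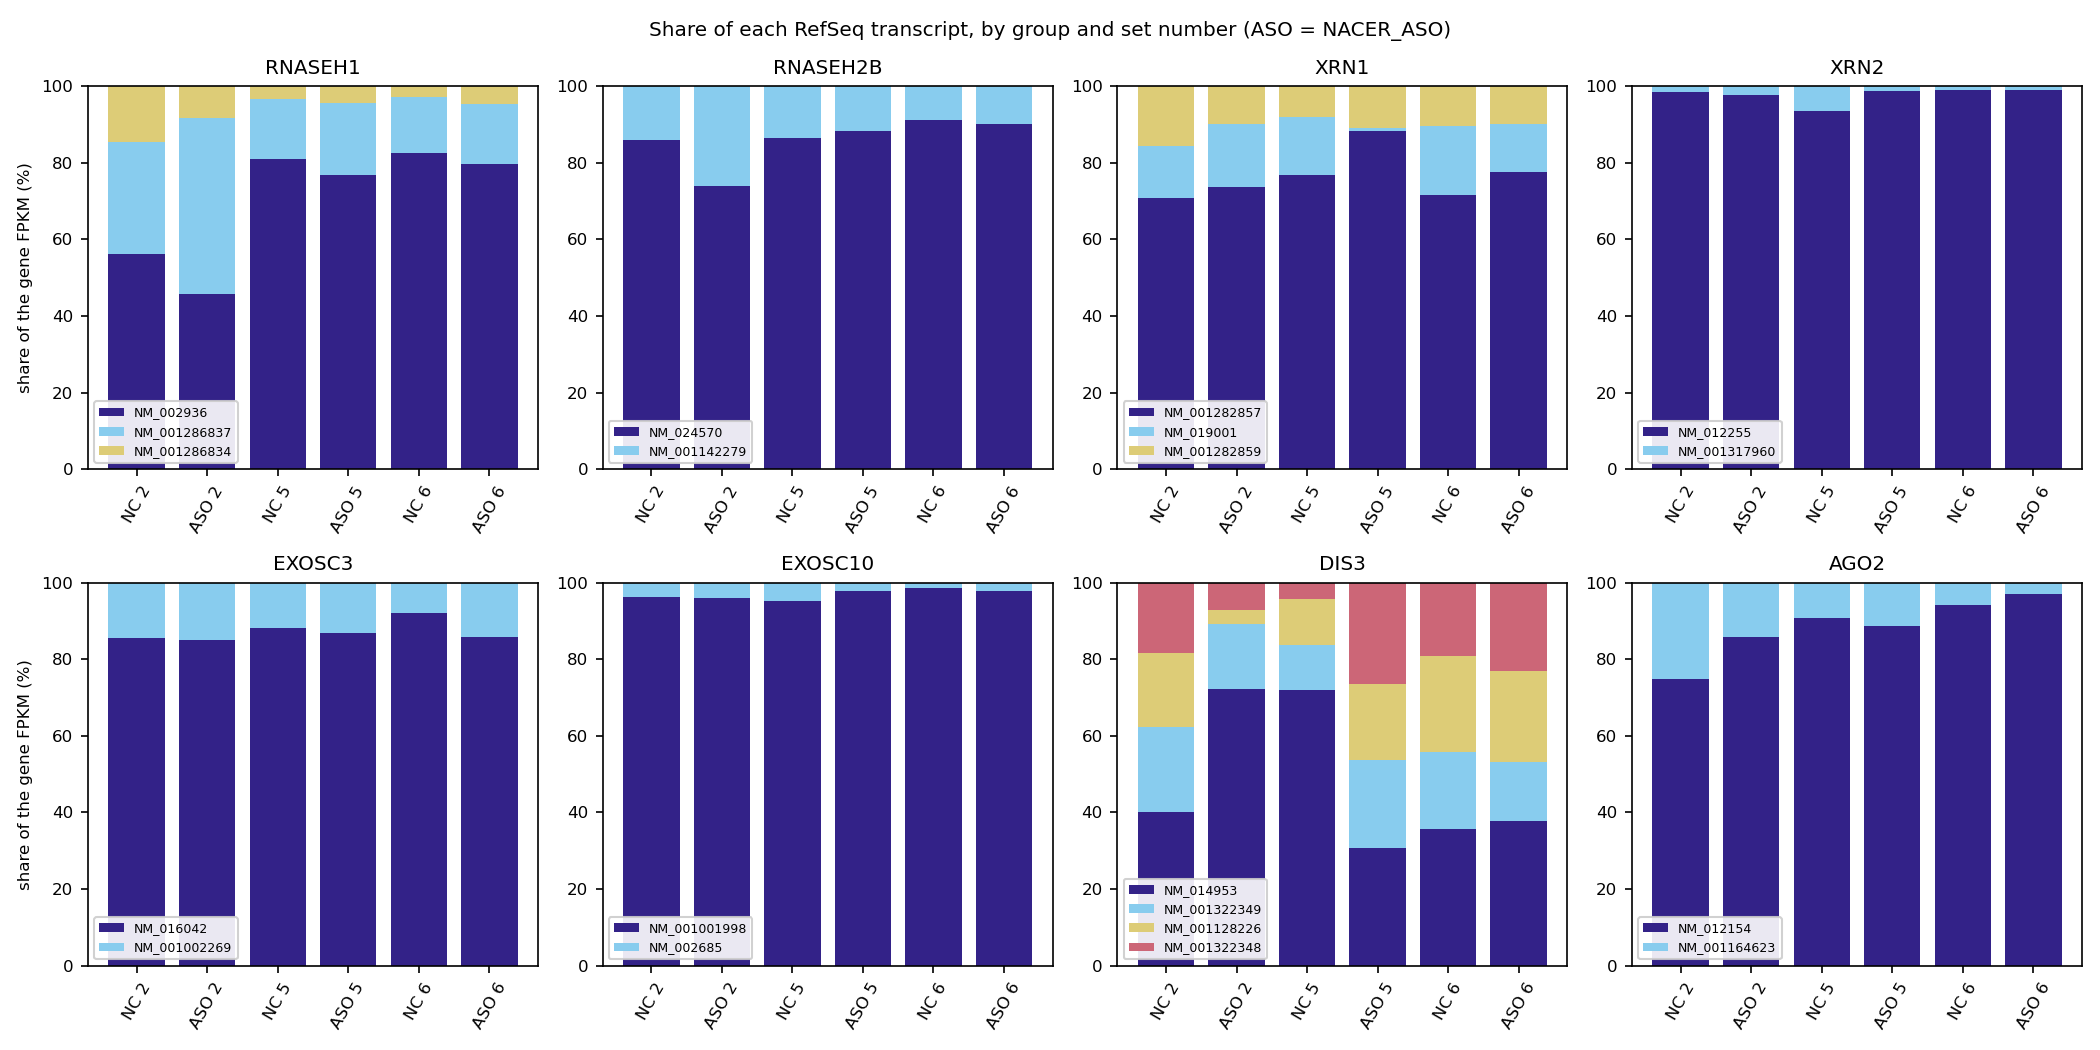
Share of each RefSeq transcript in the summed FPKM of its gene, in percent, for the 8 genes with more than 1 transcript, as stacked bars for the 6 libraries by group and set number. NM_014953 of DIS3 exchanges places between NC and NACER_ASO in sets 2 and 5, while XRN2 and EXOSC10 keep at least 93.4% in 1 transcript in every library.

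For 1 pair of isoforms in each of 3 genes, a coding stretch that 1 has and the other lacks is shown, since such bases help separate the estimates. Isoforms of the other genes were not compared in this way. The stretches were read from GENCODE 29 transcripts, on the minus strand of GRCh38, 5′ to 3′.
EXOSC10 exon 19, chr1:11073934-11074008, in NM_001001998 and not in NM_002685: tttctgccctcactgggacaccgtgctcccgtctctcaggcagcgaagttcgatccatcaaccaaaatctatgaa
EXOSC3 exon 3, chr9:37781986-37782137, in NM_016042 and not in NM_001002269: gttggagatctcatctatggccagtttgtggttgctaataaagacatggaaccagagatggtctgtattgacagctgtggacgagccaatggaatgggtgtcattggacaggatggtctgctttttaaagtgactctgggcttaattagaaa
XRN1 exon 40, chr3:142313136-142313174, in NM_019001 and not in NM_001282857: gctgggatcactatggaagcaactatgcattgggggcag
The EXOSC10 stretch of 75 bases and the XRN1 stretch of 39 keep the reading frame, while the 152 bases of EXOSC3 do not. XRN1 NM_001282857 has 3 coding bases that NM_019001 lacks. The EXOSC10 transcript with the stretch held 96.4%, 95.1% and 98.7% in NC sets 2, 5 and 6 and 96.0%, 97.8% and 97.9% in NACER_ASO. The EXOSC3 transcript with it held 85.5%, 88.2% and 92.1% in NC and 85.1%, 86.8% and 85.9% in NACER_ASO. That share was lower in NACER_ASO in 3 of 3 sets, a pattern again not counted over all transcripts. The level of this transcript was not called either (-0.16, SE 0.073 and adjusted p = 0.749 in limma with the block). The XRN1 transcript with it held 13.6%, 15.2% and 18.0% in NC and 16.4%, 0.900% and 12.6% in NACER_ASO. The lowest of these, in NACER_ASO set 5, rested on 0.0255 FPKM, and this transcript did not pass the filter.

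Around these enzymes, 104 further genes of RNA decay and silencing were examined in 9 lists, of which 103 were tested. Limma called 0 of them, with and without the set block. With the block 11 had an unadjusted p under 0.05, beside the background of 12.4% of all genes. In all 3 sets 22 were higher and 20 lower in NACER_ASO, beside 27.2% and 11% of all genes, and their median log2 difference was -0.020, beside 0.041 for all genes. The other exosome subunits had a median of 0.0016 over 9 genes, from EXOSC6 (-0.15, SE 0.28) to DIS3L, a cytoplasmic relative of DIS3 (0.10, SE 0.29). Nuclear exosome cofactors had a median of -0.063 over 11 genes, from ZFC3H1, a scaffold that links polyadenylated nuclear RNA to the exosome (-0.26, SE 0.25), to NRDE2 (0.16, SE 0.25). ZFC3H1 had 14.9 ± 2.84 FPKM in NC and 12.4 ± 3.08 FPKM in NACER_ASO and was lower in 3 of 3 sets. The SKI complex and ribosome rescue genes had a median of 0.030 over 5, from HBS1L (-0.11, SE 0.19) to TTC37 (0.14, SE 0.25).

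Decapping genes and XRN partners had a median of -0.024 over 19 genes. DDX6, a helicase of decapping complexes, had 15.1, 21.4 and 21.8 FPKM in NC sets 2, 5 and 6 and 16.3, 12.0 and 12.2 FPKM in NACER_ASO (-0.49, SE 0.18 and adjusted p = 0.373 in limma with the block). It was lower in sets 5 and 6 and not in set 2. LSM6, of the LSM ring that binds RNA 3′ ends, was at the other end of this list (0.22, SE 0.34). Deadenylation genes had a median of -0.012 over 14, from CNOT9 (-0.082, SE 0.19) to PAN2 (0.20, SE 0.47). R-loop helicases and RNase H partners had a median of 0.033 over 9, with PCNA, the replication clamp, at the upper end (0.20, SE 0.16). PCNA had 108 ± 9.08 FPKM in NC and 125 ± 12.9 FPKM in NACER_ASO and was higher in 3 of 3 sets, a pattern shown by 27.2% of all genes. It was not called (adjusted p = 0.358 in limma with the block).

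Genes of nucleic acid sensing and clearance had the highest median, 0.15 over 6 genes tested of 7. Of these genes, 3 were higher and 0 lower in all 3 sets, beside 27.2% and 11% of all genes, a difference that was not tested. They ran from ZC3HAV1 (-0.024, SE 0.26) to the DNA exonuclease TREX1 (0.66, SE 0.53). TREX1 had 0.202, 0.132 and 1.35 FPKM in NC sets 2, 5 and 6 and 2.25, 0.178 and 2.31 FPKM in NACER_ASO, near the filter (SE 0.26 and adjusted p = 0.388 in limma with the block). It passed the filter through NC set 6 and NACER_ASO sets 2 and 6, so mostly through the group where it was high. The median and the count of 3 higher genes both include TREX1 and are no evidence of a rise. Argonaute and microRNA machinery besides AGO2 had a median of 0.046 over 12, from TNRC6A (-0.19, SE 0.24) to TNRC6C (0.31, SE 0.27), both scaffolds that bind Argonaute proteins. TNRC6C had 0.886, 1.21 and 0.893 FPKM in NC sets 2, 5 and 6 and 2.04, 1.42 and 1.06 FPKM in NACER_ASO. It lay near the filter and passed it mainly through NACER_ASO, where it was high, so its place in the list is no evidence of a rise. Proteins known to bind antisense oligonucleotides had a median of -0.061 over 18, with 2 higher and 9 lower in all 3 sets, beside 27.2% and 11% of all genes, a difference that was not tested. HSP90AB1, a heat shock chaperone, had 673 ± 45.8 FPKM in NC and 589 ± 53.0 FPKM in NACER_ASO (-0.20, SE 0.17), the lowest difference of this list. In the set contrast 32 of the 103 genes were called higher and 32 lower in set 5, with a median of -0.0073, beside 24.1% higher, 46.6% lower and a median of -0.22 for all genes. The difference from that background was not tested, and the balance of higher and lower calls in this contrast moved with scaling.

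**Figure D5:**
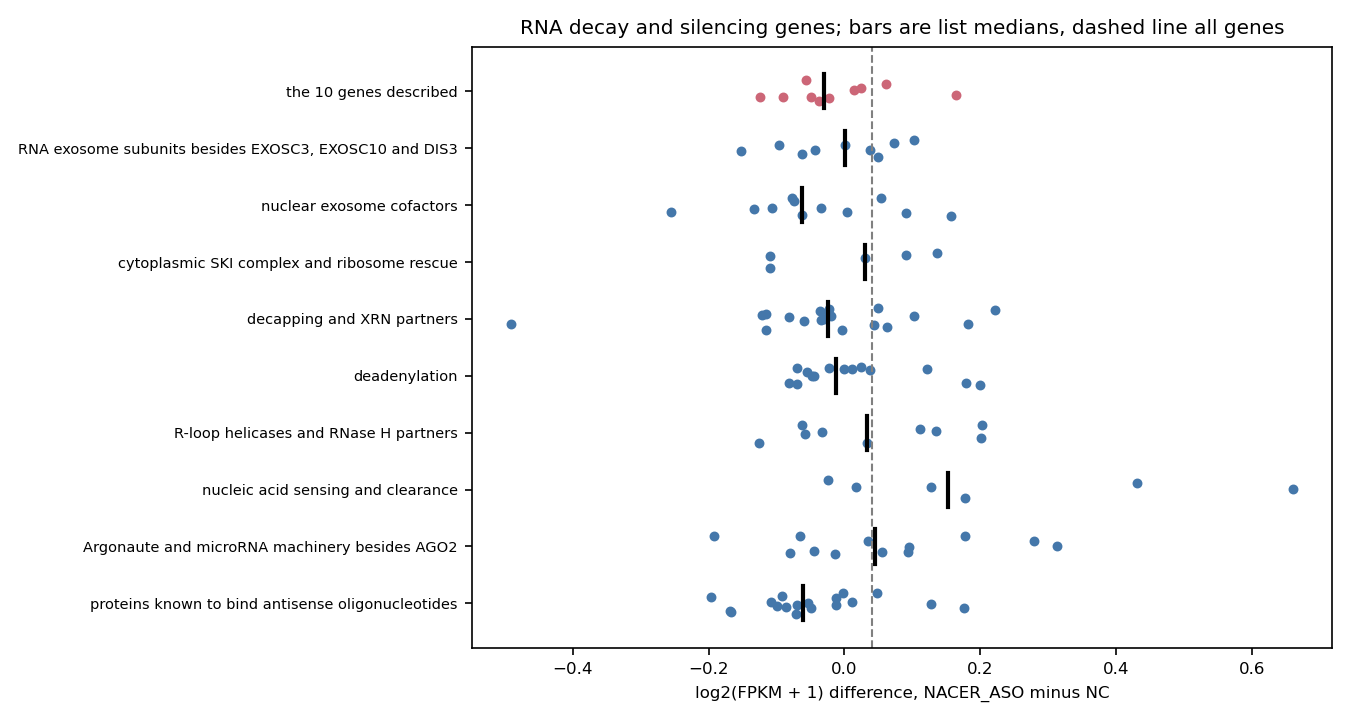
Log2(FPKM + 1) difference, NACER_ASO minus NC, of each gene tested in the 9 wider lists and of the 10 genes described. Each point is a gene, black bars are medians and the dashed line is the median of all genes at 0.041. DDX6 at -0.49 and TREX1 at 0.66 lie farthest out, and no gene shown passed the test.

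The genes whose centred log2 profiles over the 6 libraries lay closest to the members were sought among 13566 other genes tested. The nearest to RNASEH1 was RTKN2, at a root mean square distance of 0.041, and to RNASEH2A it was CDC34, at 0.030. For RNASEH2B, RNASEH2C and XRN1 these were ZNF394 (0.038), ELOVL1 (0.048) and ZAK (0.031). For XRN2 and EXOSC3 they were RAI1 (0.034) and XPO6 (0.030), and for EXOSC10, DIS3 and AGO2 they were EIF2S3 (0.023), SNORD21 (0.049) and CLDN1 (0.064). Among the members, RNASEH2A and EXOSC10 were each other's nearest at 0.13, XRN1 and AGO2 at 0.19, XRN2 and EXOSC3 at 0.16, and RNASEH1 and DIS3 at 0.19. The profiles share the 3 sets, which dominate them.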

How the data were processed

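The authors deposited FPKM values for RefSeq transcripts with hg19 loci, per the file headers. Per the labels' protocols, RNA was extracted with Trizol and libraries were made from 1 ug of total RNA with a stranded TruSeq mRNA kit. FastQC 0.11.5, Bowtie2 2.2.6 and StringTie 1.3.3b with hg19 are named, per the submitters' processing notes, but what each was used for, and whether counting used strand, is not stated. FPKM is relative to a library's total, and no count model was fitted. Low values were not clearly whole reads (between 37.6% and 46.5% of the lowest values lay within 2% of a multiple of the commonest step), so depths are rough.

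FPKM was summed per symbol, genes with at least 1 FPKM in 3 libraries were kept, and log2(FPKM + 1) was fitted in limma 3.58.1 (R 4.3.3) with a variance trend. P-values are two-sided and adjusted by Benjamini-Hochberg over all genes. The code was tested on simulated data. Libraries of the same set correlated at 0.90, 0.97 and 0.90 across genes after subtraction of group means, so the set numbers pair the libraries and blocked values stand beside the others.

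The members, lists and tests were chosen with earlier results of these data known. Genes named were all members, their transcripts with at least 10% of the gene, the lowest and highest gene of each list, some of which are not reported here, and the nearest profile per member. Other settings tried were a pseudocount of 0.1, no filter or 5 FPKM, median-of-ratios or quantile scaling, array weights, coding transcripts only, the block, and leaving out libraries or sets. Exact permutation tests used 3 against 3 values. Upstream sequences came from RefSeq (GRCh38.p14) and coding stretches from GENCODE 29, builds other than hg19. The level of NACER is not analysed here.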

Additional observations from a re-analysis of the deposited data

How the results depend on the processing

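Of 170 values of the group difference of the 10 genes under other settings, 0 were called, and they ran from -0.44 to 0.35. In 138 the direction was as reported and in 32 it turned, all with intervals that included 0 in the reported fit, and the cause was not tested. Leaving out 1 library, which unbalances the sets, gave -0.12 to 0.15 for RNASEH1, -0.13 to 0.21 for RNASEH2A, 0.024 to 0.35 for RNASEH2B, -0.22 to 0.26 for RNASEH2C, -0.28 to 0.31 for XRN1, -0.19 to 0.022 for XRN2, -0.21 to -0.036 for EXOSC3, -0.20 to 0.14 for EXOSC10, -0.26 to 0.11 for DIS3 and -0.44 to 0.35 for AGO2. Median-of-ratios scaling turned RNASEH1 to -0.043, RNASEH2A to -0.010 and RNASEH2C to -0.052, quantile normalization turned RNASEH2C to -0.029, and array weights AGO2 to 0.00060. With the set number as a replicate block, leaving out set 2 turned RNASEH1 to -0.031. Leaving out set 5 turned DIS3 to 0.14 and XRN1 to 0.046, and leaving out set 6 turned RNASEH2C to -0.11, XRN1 to 0.027, XRN2 to 0.024 and EXOSC10 to 0.023. The block changed no call (0 of 10 members, 0 of all genes), but with it and without set 5 or set 6, 13 and 95 of all genes were called, 0 of them members.

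In the set contrast, between 5 and 7 members were called in every setting tried, but most other genes were called too. Of 13576 genes tested, it called 9597 as deposited, 9416 with median-of-ratios scaling and 9058 with quantile normalization. DIS3 turned to 0.065 with median-of-ratios scaling and 0.015 with quantile normalization, EXOSC3 to 0.15 and 0.082, and without 1 library DIS3 ran from -0.43 to 0.097. RNASEH1 was called higher with quantile normalization (0.37) and XRN2 with array weights (adjusted p = 0.0406). Values near 1 FPKM rest on few fragments.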

Other observations

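Genes that neighbour the members in hg19 were set beside them, since reads of overlapping ends cannot be divided with certainty where use of strand is not stated. RNASEH1-AS1, on chromosome 2 from 3605976 to 3609340, had 11.8, 8.57 and 4.62 FPKM in NC sets 2, 5 and 6 and 9.85, 8.01 and 6.29 FPKM in NACER_ASO. It was lowest in set 6, as RNASEH1 was, and the ratio of RNASEH1 to it in FPKM was 1.53 ± 0.463 in NC and 1.48 ± 0.0676 in NACER_ASO (SD, n = 3, exact permutation p = 1). RNASEH2B-AS1 was listed at 0 in 5 of the 6 libraries.

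KAT5, an acetyltransferase gene that overlaps RNASEH2C by 1934 bases, had 19.5, 12.4 and 13.8 FPKM in NC sets 2, 5 and 6 and 15.6, 12.2 and 13.6 FPKM in NACER_ASO, highest in set 2, whereas RNASEH2C had similar levels in sets 2 and 6. DIS3 is overlapped at its ends by BORA, which activates mitotic kinases, over 797 bases and by PIBF1 over 106 bases. BORA had 16.6, 17.3 and 9.48 FPKM in NC and 15.2, 17.7 and 9.68 FPKM in NACER_ASO, lowest in set 6, while PIBF1 was lowest in set 5 (5.17 and 5.59 FPKM).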
